A study of Homo sapiens with 6 samples.

Results

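The loci described here are the 8 genes *CCND1*, *CCNE1*, *CDK4*, *CDK6*, *MDM2*, *EGFR*, *MET* and *FGFR1*, each with 1 Mb of sequence on either side. They were chosen by name, as cyclin, CDK and receptor oncogenes, out of 17849 protein-coding genes that the maps cover. Their windows hold 423 of 75918 bins of 40 kb, and 418 of these had enough read pairs to be used, out of 64931 in the genome. In situ Hi-C cuts crosslinked chromatin (here with MboI), joins ends that lie close together in the nucleus and counts the joined pairs. Untreated cells of 4 established cancer cell lines were profiled. SW480 and SNU-C1 come from colon cancer, HCC1954 from breast cancer and OE33 from esophageal adenocarcinoma. There was 1 map per line, and SW480 also had separate maps of 2 replicates. The methods state that assays were run in duplicate, but no source used here says if more than a single library went into each map of the lines other than SW480. Each line is a single cultured tumour, so a line stands for itself and not for a cancer type.

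D-type cyclins and cyclin E are the regulatory subunits that switch on cyclin-dependent kinases. CDK4 and CDK6, bound to a D-type cyclin, phosphorylate the retinoblastoma protein and so open the way into S phase, while cyclin E does the same with CDK2. MDM2 marks p53 for degradation. EGFR, MET and FGFR1 are receptor tyrosine kinases whose signalling raises D-type cyclins, and all of these genes are known for copy gains in tumours. Copy gains often arise together with rearrangements that bring distant chromosome segments side by side, and a Hi-C map records both, as extra read pairs and as contacts between loci that are far apart in the reference genome.

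Read pairs within chromosomes numbered from 89418425 in OE33 to 133402372 in SW480, in which the replicates contributed 65990810 and 67373209. Pairs between chromosomes made up 36.6% of the read pairs of OE33, 19.6% of those of HCC1954 and 14.8% of those of SNU-C1, but 0.263% of those of SW480 (pairs within 1 bin, which only the SW480 maps hold, not counted), which was left out of comparisons between chromosomes. Since 3 of the 4 lines have 1 map each, no test between lines was made, and intervals given for read pairs (95%, exact Poisson) cover counting error only. The spread between replicates is known for SW480 alone.

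Coverage at the loci was compared as the read pairs of a bin with other bins of its own chromosome, over the autosomal median of its line. Pairs between chromosomes were not counted in it. That quantity was then set over its median in the other 3 lines, with the median over each window. A locus was called gained at 1.5-fold or more and lost at 0.667 or less. Of 32 combinations of locus and line, 3 were gained, namely *FGFR1* in SNU-C1 and *CDK6* and *MET* in OE33. Among all protein-coding genes 9.79% of combinations were gained, a share close to that of the members. Another 4 combinations were lost (*CCND1* in SNU-C1 and *CDK6*, *EGFR* and *FGFR1* in HCC1954), where the share over all genes was 7.08%. By line, OE33 had 22.0% of all genes gained and 4.01% lost, HCC1954 7.43% and 11.6%, SW480 5.55% and 3.1%, and SNU-C1 4.15% and 9.6%. No member was gained or lost in SW480, whose replicates differed by 0.312% to 2.23% at these loci.

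**Figure D1:**
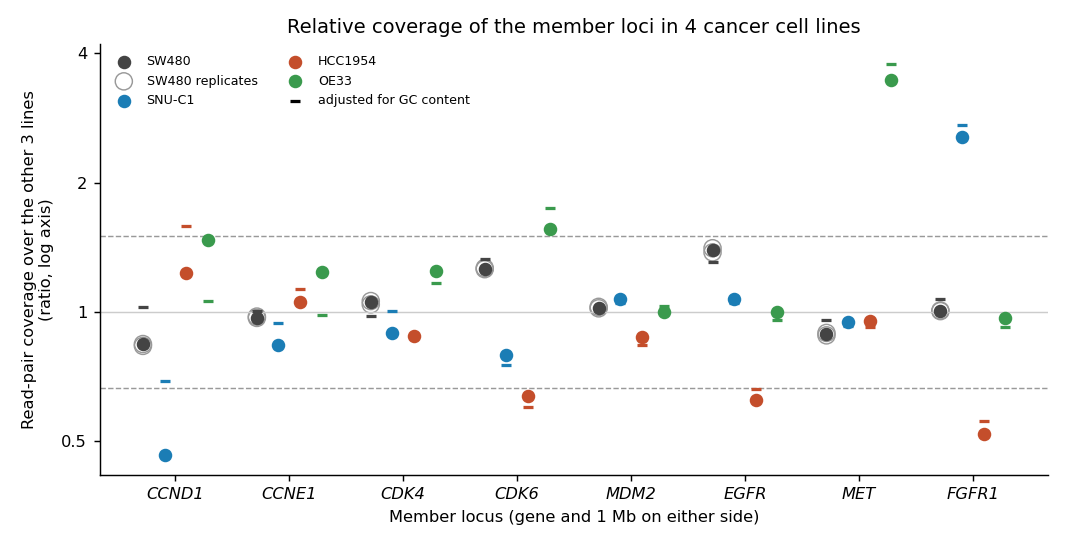
Relative coverage of the 8 loci in each line, as the ratio to the median of the other 3 lines on a log axis. Filled circles are the 4 lines, open circles the SW480 replicates, short bars the values after adjustment for GC content, and dashed lines the thresholds of 1.5 and 0.667; *MET* in OE33 (3.45) and *FGFR1* in SNU-C1 (2.55) stand farthest above 1.

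Coverage also followed base composition differently in each library. Over 62197 autosomal bins, the log2 ratio to the other lines correlated with GC content at r = 0.49 for OE33, 0.12 for SW480, -0.20 for HCC1954 and -0.37 for SNU-C1, as a description across bins. After each line was scaled within 50 groups of bins of like GC content, 4 member combinations were gained and 3 lost. *CCND1* in HCC1954 was added to the gains (1.58), and *CCND1* in SNU-C1 was no longer a loss (0.691). The share over all genes was then 5.8% for gains and 4.49% for losses. Copy number, GC content and density of restriction sites all set the read pairs of a bin, and their parts cannot be told apart in a single map.

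*CCND1* encodes cyclin D1 and lies at chromosome 11, 69455924 to 69469242 on the plus strand (hg19). Its window stood at 1.48 times the autosomal median in OE33, 1.31 times in HCC1954, 1.08 times in SW480 and 0.649 times in SNU-C1. SNU-C1 was the lowest line and its ratio to the others was 0.464, a value that 0.0616% of all genes reached or undercut in that line. Those genes include *FGF3* (0.460) and *FGF4* (0.462), which lie in the same window. After adjustment for GC content the ratio was 0.691, which passes no threshold. The window has the highest GC content of the 8, at 50.8% against 39.8% over all autosomal bins. The window median hid a step in HCC1954. At 68.88 Mb the 5-bin median of the ratio went from 0.604 to 2.36, a 3.92-fold change. The bin of the gene itself had 2.07 times the autosomal median in HCC1954 and 1.75 times in OE33, beside 1.15 for SW480 and 0.573 for SNU-C1, so HCC1954 was highest at the gene and OE33 over the window. In the other 3 lines the ratio stepped down at or near the same place, from 1.57 to 0.684 in SW480 for example. A ratio to the median of other lines can fall where 1 of those lines gains, so these steps are not independent of that in HCC1954.

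*CCNE1*, the cyclin E1 gene, lies at chromosome 19, 30302898 to 30315219 on the plus strand. Its window stood below the autosomal median in all 4 lines, with OE33 at 0.819, HCC1954 at 0.702, SW480 at 0.683 and SNU-C1 at 0.593. The ratios to the other lines ran from 0.839 in SNU-C1 to 1.24 in OE33, and no line passed a threshold. In SW480 the rest of the long arm had 1.45 times the coverage of the other lines, against 0.969 in the window of *CCNE1*.

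*CDK4*, the kinase partner of the D-type cyclins, lies at chromosome 12, 58141510 to 58149796 on the minus strand. Its window stood at 1.15 times the autosomal median in OE33, and SW480 (0.948), SNU-C1 (0.897) and HCC1954 (0.859) lay slightly below theirs. The ratios spanned 0.880 to 1.247, so none of the lines showed a gain of the locus by this measure.

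*CDK6*, the second kinase of the D-type cyclins, spans chromosome 7, 92234235 to 92465887 on the minus strand. Its window stood above the autosomal median in all 4 lines, with OE33 at 2.71, SW480 at 2.16, SNU-C1 at 1.71 and HCC1954 at 1.40. OE33 was gained relative to the others (1.56) and HCC1954 lost (0.637), although HCC1954 itself was over its autosomal median. Over the 7 bins of the gene alone the ratio in OE33 was 1.41, under the threshold. After adjustment for GC content the window ratio was 1.75 in OE33 and 0.602 in HCC1954.

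*MDM2*, the ubiquitin ligase of p53, lies at chromosome 12, 69201957 to 69239324 on the plus strand and had the narrowest range of the 8. Its window stood at 1.19 times the autosomal median in SNU-C1, 1.16 times in SW480, 1.12 times in OE33 and 1.03 times in HCC1954. The ratios to the other lines ran from 0.874 to 1.07. The 2 loci on the long arm of chromosome 12, *CDK4* and *MDM2*, therefore showed neither gain nor loss in any line.

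*MDM2* started in a bin that was a domain boundary in all 4 lines and *CDK4* in one that was a boundary in 3 of them, as described further on, and their promoters are shown for that reason. The sequences are RefSeq windows from 250 bases before to 50 after a start, on GRCh38.p14, a newer build than that of the maps. Capitals mark GATC, the site that MboI cuts, and AGGGGGC or its reverse complement GCCCCCT, letters from the core of the CTCF motif, and no marked stretches overlap. Both strands were searched. GATC occurs in 41.7% and the CTCF letters in 14.4% of 35116 such windows.
*CDK4* (chr12:57752261-57752560, minus strand): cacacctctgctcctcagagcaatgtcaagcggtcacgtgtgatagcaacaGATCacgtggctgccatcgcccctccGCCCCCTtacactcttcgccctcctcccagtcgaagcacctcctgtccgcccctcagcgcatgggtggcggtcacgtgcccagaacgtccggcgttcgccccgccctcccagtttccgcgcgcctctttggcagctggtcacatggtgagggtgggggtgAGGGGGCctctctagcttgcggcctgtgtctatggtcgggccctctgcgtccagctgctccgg
*MDM2*, upstream start (chr12:68807922-68808221, plus strand): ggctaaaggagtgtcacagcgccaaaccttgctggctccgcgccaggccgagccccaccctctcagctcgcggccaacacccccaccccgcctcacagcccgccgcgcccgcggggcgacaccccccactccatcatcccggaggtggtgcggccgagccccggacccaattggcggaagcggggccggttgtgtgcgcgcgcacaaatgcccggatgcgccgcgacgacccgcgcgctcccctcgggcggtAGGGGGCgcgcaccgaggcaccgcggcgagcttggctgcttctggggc
*MDM2*, downstream start (chr12:68808767-68809066, plus strand): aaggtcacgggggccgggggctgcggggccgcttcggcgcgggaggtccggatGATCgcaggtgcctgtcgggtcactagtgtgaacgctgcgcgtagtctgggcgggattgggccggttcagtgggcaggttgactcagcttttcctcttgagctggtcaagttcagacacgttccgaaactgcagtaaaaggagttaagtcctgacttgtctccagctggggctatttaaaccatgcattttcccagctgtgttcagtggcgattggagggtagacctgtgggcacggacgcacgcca
The *CDK4* window holds 1 GATC and 2 matches to the CTCF letters. *MDM2* has 4 windows in 2 pairs that overlap almost fully, and the first of each pair is printed. The upstream one holds no GATC and 1 match, close to the start, and the downstream one holds 1 GATC and no match. These are matches of letters and no measured sites. Windows for 6 of the 8 members were matched by symbol, in 11 windows, and those of *CCND1* and *FGFR1* were not.

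*EGFR*, the receptor of epidermal growth factor, spans chromosome 7, 55086710 to 55279321 on the plus strand of the short arm. Its window stood at 1.53 times the autosomal median in SW480, 1.32 times in SNU-C1, 1.23 times in OE33 and 0.831 times in HCC1954. HCC1954 was the lowest and was called lost at 0.624, but the rest of its short arm was also low at 0.751. Over the 5 bins of the gene HCC1954 stood at 1.35 times its autosomal median and 0.801 of the other lines, which passes no threshold.

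*MET*, the receptor of hepatocyte growth factor, spans chromosome 7, 116312250 to 116438431 on the plus strand of the long arm. Its window stood at 5.64 times the autosomal median in OE33, while SNU-C1 (1.72), HCC1954 (1.66) and SW480 (1.64) lay close together. OE33 was 3.45 times the median of these 3, with every bin of the window at 2.71 or more. The 4 bins of the gene reached 6.72 times the autosomal median. Only 0.42% of all genes had a ratio as high in OE33. The median bin of the window held 14338 read pairs in OE33 against 4209 to 6223 in the other lines, so counting error is small here.

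*FGFR1*, a receptor of fibroblast growth factors, spans chromosome 8, 38257733 to 38326352 on the minus strand of the short arm. Its window stood at 2.54 times the autosomal median in SNU-C1, 1.08 times in SW480, 1.05 times in OE33 and 0.580 times in HCC1954. SNU-C1 was 2.55 times the other lines, a ratio that 0.493% of all genes reached in that line, and HCC1954 was 0.5203 of them. SW480 and OE33 lay near their autosomal medians. In SNU-C1 the rest of the short arm stood at 0.8004, so the window was 3.19 times its arm, while in HCC1954 the rest of the arm was also low (0.578). A step lay inside the window of HCC1954, where the ratio went from 0.518 to 1.47 at 39.16 Mb.

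Extents were followed outwards from each gene while the running median over 11 usable bins stayed at 1.5 or more. Such a segment held a member in 4 combinations, and 11.4% of all combinations of gene and line lay in one (OE33 23.7%, HCC1954 9.05%, SW480 8.2%, SNU-C1 4.77%). The segment of *CCND1* in HCC1954 was the shortest, 0.64 Mb from 68.88 to 69.52 Mb, with a median ratio of 2.36. The median of the 5 nearest bins was 0.604 before the start and 1.04 after the end, against 2.36 and 2.05 inside. It holds 7 protein-coding genes, and *MYEOV* had the highest ratio (2.66). The segment thus contained the whole of *CCND1* and ended soon after it.

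The segment of *MET* in OE33 was the longest, 23.88 Mb from 96.24 to 120.12 Mb, with a median of 3.14 and 197 protein-coding genes. Its end was sharp, from a 5-bin median of 4.02 inside to 0.622 outside, and its start was not, from 1.47 outside to 1.505 inside. *ACTL6B* had the highest ratio in it (4.96). That of *CDK6* in OE33 ran for 2.64 Mb from 92.44 to 95.08 Mb with a median of 1.69, and held 18 genes with *PEG10* highest (1.85). It started inside *CDK6*, at a 5-bin median of 1.56 against 1.41 outside, so its edge rests on small differences. With dips of up to 25 bins bridged, the *CDK6* and *MET* segments joined into a single one of 33.32 Mb, from 86.80 to 120.12 Mb.

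The segment of *FGFR1* in SNU-C1 covered 6.76 Mb from 34.76 to 41.52 Mb, with a median of 2.77 and 39 protein-coding genes. It started abruptly, from a 5-bin median of 0.953 outside to 14.6 inside, and declined towards *FGFR1*. *UNC5D* had the highest ratio of its genes, at 4.74. At the far end the 5-bin median went from 1.66 to 1.48, and with dips bridged the segment reached 47.64 Mb (12.88 Mb). The 5-bin median at that bridged end was 1.38 inside and 1.35 outside, both under 1.5, so no step marks it. Dips were counted in usable bins, and the 12.88 Mb held 194 usable bins of 40 kb, so part of that stretch had no data. The plot of coverage along the chromosome shows this start and the decline towards the gene.

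**Figure D2:**
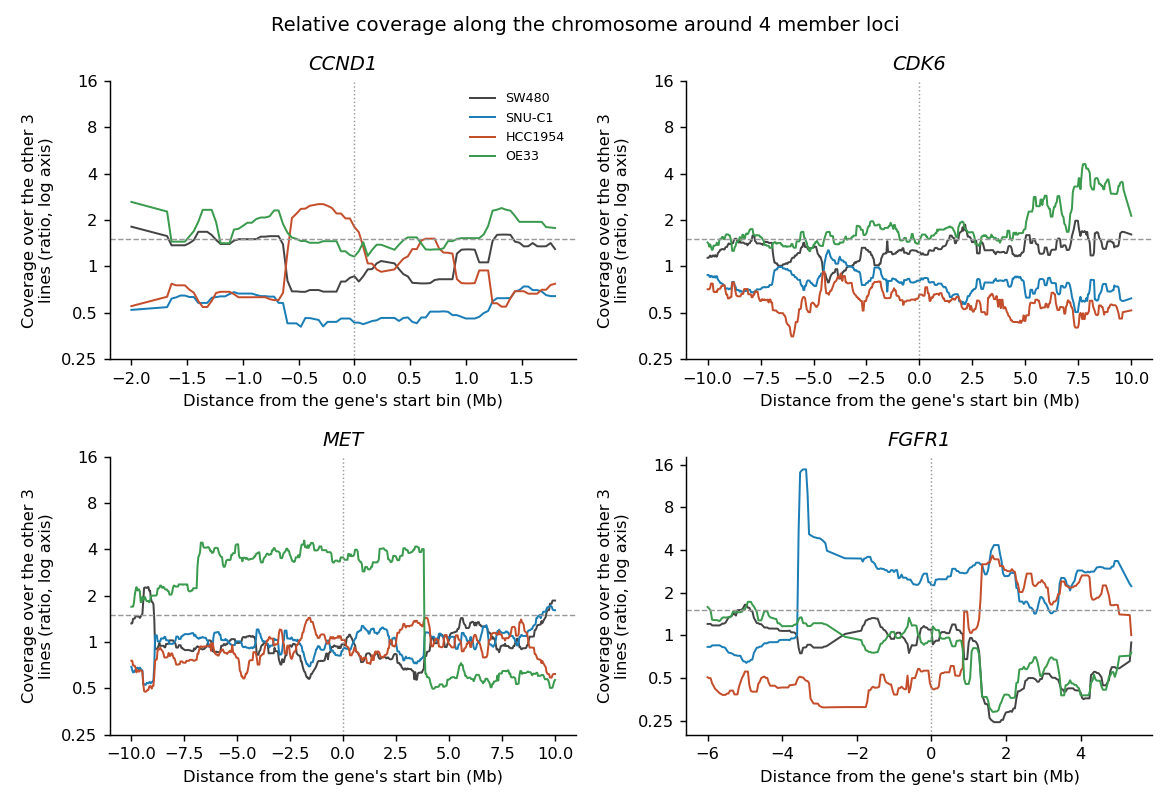
Relative coverage (ratio to the median of the other 3 lines, log axis) against distance from the start bin of *CCND1*, *CDK6*, *MET* and *FGFR1* in Mb, as running medians over 5 usable bins. The dashed line is 1.5; HCC1954 is raised from 560 kb before to just past *CCND1*, OE33 is raised on both sides of *MET*, and SNU-C1 rises abruptly before *FGFR1*.

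For each member, the gene on another chromosome with the most similar ratios over the 4 lines was found by Euclidean distance in log2. The distances were 0.03 for *MDM2* (*EPHA10*), 0.05 for *CCNE1* (*BIN1*) and for *CDK6* (*RFC5*), and 0.08 for *CDK4* (*PDE6A*). They were larger for *EGFR* (*REG3A*, 0.19), *CCND1* (*PLEKHG4B*, 0.23), *FGFR1* (*TUBGCP3*, 0.40) and *MET* (*ACACA*, 0.44). *MET* and *FGFR1*, the members with the highest ratios, had the largest distances. The distance is taken from those same ratios, and few genes reach them, so it adds nothing to the coverage calls.

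The other 51 genes of the pathway were counted by the same rule. *IGF2*, *CDKN1C* and *FGFR3* are among them, although their windows had too few usable bins to enter the shares over all genes. In SW480, 2 were gained and 2 lost. In SNU-C1 the counts were 2 and 6, in HCC1954 7 and 6, and in OE33 10 and 2. Neighbouring genes with overlapping windows, such as *AREG*, *EREG* and *BTC*, were each counted. These counts stand beside the shares of all genes given above by line, such as 22.0% gained in OE33. After adjustment for GC content 2 were gained and 1 lost in SW480, 2 and 1 in SNU-C1, 5 and 6 in HCC1954, and 5 and 2 in OE33, so that the losses of SNU-C1 and the gains of OE33 shrank most. The median ratio over the 51 genes was 1.13, 0.823, 1.01 and 1.11 in that order, beside 1.09, 0.895, 0.939 and 1.08 over all genes. Their medians lay near those of all genes in each line.

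Among cyclins, CDKs and their direct partners, *CCNE2* (cyclin E2) differed most, at 3.21 in HCC1954, 1.71 in SNU-C1, 0.571 in SW480 and 0.512 in OE33. *CCNE1* showed no such spread. *CCND2* was gained in SW480 (1.65) and *CCND3* in HCC1954 (1.52), both cyclins that can stand in for cyclin D1. *CDK1*, the mitotic kinase, was gained in OE33 (1.51), and *E2F1*, the transcription factor that the retinoblastoma protein holds back, was gained in OE33 (1.84) and lost in HCC1954 (0.487). After adjustment for GC content *CCND3* in HCC1954 (1.47) and *E2F1* in OE33 (1.34) were no longer gained.

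The inhibitors of the kinases and the p53 regulators moved in both directions. *CDKN1A* (p21) was gained in HCC1954 (1.53) and lost in SW480 (0.642), and *CDKN1B* (p27) was gained in SW480 (1.58) and lost in HCC1954 (0.552). *CDKN1C* was gained in OE33 (1.83) and lost in HCC1954 (0.549), *CDKN2C* was lost in OE33 (0.645), and *CDKN2D* was gained in OE33 (1.67) and lost in SNU-C1 (0.659). The window of *CDKN1C* had 18 usable bins, none of them over the gene itself. *RB1*, the retinoblastoma gene, was gained in SNU-C1 (2.26). *MDM4*, the paralogue of *MDM2*, was gained in HCC1954 (1.51) and lost in SNU-C1 (0.495), where *MDM2* itself stood at 1.07. After adjustment for GC content both calls of *CDKN2D* ended (0.990 in OE33 and 0.941 in SNU-C1), as did both of *CDKN1A* (1.48 in HCC1954 and 0.716 in SW480) and the gain of *CDKN1C* in OE33 (1.31).

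Of the other receptor kinases, 5 were gained in OE33, led by *ERBB2* (4.88) and *FGFR2* (2.13), with *FGFR3* (1.63), *FGFR4* (1.61) and *INSR* (1.52) behind. The window of *FGFR3* had 24 usable bins, none of them over the gene itself. After adjustment for GC content 2 receptor kinases were gained there, beside 7.96% of all genes. *FGFR3* (1.23), *FGFR4* (1.12) and *INSR* (1.05) were not. The windows of *FGFR3* (0.779) and *INSR* (0.896) also lay below the autosomal median of OE33, so their unadjusted gains were relative to the other lines only. *AXL* was lost in SNU-C1 (0.528, and 0.735 after the adjustment). A window median can miss a short gain. *ERBB2*, whose bins were looked at after its values were seen, had a window ratio of 1.13 in HCC1954, yet the bins of the gene stood at 49.1 times the autosomal median there and at 15.9 in OE33, against 1.01 in SW480 and 0.779 in SNU-C1. Over its own bins the highest member was *MET* in OE33 at 6.72.

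Of the 18 ligands, *AREG*, *EREG* and *BTC*, neighbours on chromosome 4 that bind EGFR, all had 1.54 in HCC1954, but 1.44 to 1.46 after adjustment for GC content. They lie within 1 Mb of each other and their windows overlap, so these values are not separate measurements. *FGF3*, *FGF4* and *FGF19* lie within 1 Mb of *CCND1* and shared its loss in SNU-C1 (0.460, 0.462 and 0.464), so they give no separate measurement. Like *CCND1* they were no longer lost there after the adjustment (0.677, 0.677 and 0.687), and all 3 were then gained in HCC1954 (1.58). *NRG1* and *HGF*, the ligand of MET, were lost in HCC1954 (0.470 and 0.663). Against the autosomal median of HCC1954 itself *NRG1* stood at 0.388 but *HGF* at 1.46, so *HGF* was low only relative to the other lines. *IGF2* was gained in OE33 (2.03, and 1.40 after the adjustment) and lost in HCC1954 (0.5002). Its window had 12 usable bins, none of them over the gene itself. The adjustment added *NRG1* (1.54) and *HGF* (1.73) to the gains of OE33.

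Contacts with other chromosomes were strongest at *CCND1*. For each 1-Mb block that holds a member, the read pairs with every usable 1-Mb block of other chromosomes were set against the mean of all pairs between chromosomes (O/E). Contacts of an O/E of 4 or more that also exceeded the highest O/E among the other lines 4 times or more, after 0.5 had been added on both sides, are called line-specific here. Of 60303 block pairs, 246 (0.408%) were line-specific, where 0.214% of all block pairs in the genome were. HCC1954 had 149, SNU-C1 68 and OE33 29. *CCND1* in HCC1954 alone gave 117 of the 246, out of 2513 blocks tested. The share over the members is therefore largely that of a single locus in a single line, and is no trait of the members as a set. The genome-wide share for OE33 was 0.071%, for SNU-C1 0.17% and for HCC1954 0.402%. *CDK4* and *MDM2* had none in any line, and each of the other 6 members had them in a single line. In blocks of 2 Mb *FGFR1* also had 12 in HCC1954, beside 25 in SNU-C1. Without iterative correction *CDK4* had up to 7 and *MDM2* up to 5 in a line, and *CDK6* had 12 in OE33.

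*CCND1* in HCC1954 had 117 line-specific blocks on 10 chromosomes, with 56224 read pairs in all. The strongest lay on chromosome 8 in the block from 114 Mb, at an O/E of 151 and 2981 read pairs (2875 to 3090), against at most 0.545 in the other lines. A second run on chromosome 8, from 127 to 133 Mb, reached an O/E of 126 at 130 Mb. Read pairs of 3 by 3 bins were searched over the gene and 1 Mb on either side, which is wider than the 1-Mb block. In this run 1640 (1562 to 1721) joined bins around 69.00 Mb and 128.04 Mb, and at most 2 joined them in another line. That position lies 440 kb before the start bin of *CCND1* and inside its gained segment.

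On chromosome 5 the same block met 6 separate stretches. From 176 Mb the O/E was 94.8 with 3932 read pairs, of which 784 joined 3 by 3 bins around 69.36 Mb, just before *CCND1*, and 176.36 Mb in *UIMC1*. From 0 to 3 Mb it reached 81.7, and the bin pair with most read pairs had its end in *LPCAT1*. At 116 Mb it was 66.4, with 592 read pairs around 69.56 and 116.80 Mb. The weaker stretches, single blocks at 103, 108 and 112 Mb, reached 19.3, 10.4 and 5.33 respectively. The end of the short arm of chromosome 9 (0 to 2 Mb) reached an O/E of 83.98, in the block from 0 Mb with 904 read pairs. The 3 by 3 bins with most read pairs there (47) had their end in *KANK1*. Further runs of 10 blocks or more lay on chromosome 4 from 152 to 162 Mb (54.0 at most), chromosome 6 from 48 to 58 Mb (24.8), chromosome 21 from 16 to 34 Mb (15.1) and chromosome 2 from 213 to 238 Mb (15.1). No line but HCC1954 exceeded 3.38 at any of the 117 blocks. The mean O/E over all 2513 blocks was 2.88 in HCC1954, beside 1.102 in SNU-C1 and 1.19 in OE33.

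*FGFR1* in SNU-C1 had 43 line-specific blocks, of which 42 lay on chromosome X between 71 and 155 Mb. The O/E was highest at 71 Mb, at 59.5 with 475 read pairs (433 to 520), and fell unevenly along the chromosome. It reached 34.7 at 84 Mb and 20.4 at 100 Mb, was lowest at 116 Mb (4.15), and stood at 9.94 at 153 Mb. Over the gene and 1 Mb on either side, the bin pairs with most read pairs ended near 37.44 Mb. That is outside the block of 38 to 39 Mb, so they are not among the read pairs above. It lies 880 kb from the start bin of *FGFR1* on the side where coverage is higher. *CDK6* in SNU-C1 met 24 blocks of chromosome 8 in a single run from 62 to 89 Mb, at most 17.4 at 67 Mb, with 2414 read pairs over the run. *EGFR* in SNU-C1 had 1 block, on chromosome 20 at 40 Mb, with an O/E of 6.18 and 61 read pairs (46.7 to 78.4), and none with 1 added to each O/E.

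*MET* in OE33 had 29 line-specific blocks on 3 chromosomes, with 11606 read pairs. The count was 12 with 1 added to each O/E and 598 without iterative correction. The tip of the short arm of chromosome 5 (0 to 4 Mb) reached an O/E of 26.5 with 1382 read pairs at 1 Mb. Chromosome 1 had 20 blocks between 59 and 102 Mb, 13.5 at most, and chromosome 13 had 5 between 102 and 108 Mb, 10.03 at most. *CCNE1* in HCC1954 had 32 blocks, 25 of them on chromosome 2 from 118 to 152 Mb, where the O/E reached 13.4, and 2 on chromosome 15 from 26 to 28 Mb, where it reached 14.4. Of the 4 combinations with a gained segment, *CCND1* in HCC1954, *FGFR1* in SNU-C1 and *MET* in OE33 thus had such contacts and *CDK6* in OE33 had none. *CCNE1* in HCC1954 (coverage ratio 1.05), *CDK6* in SNU-C1 (0.794) and, with its single block, *EGFR* in SNU-C1 (1.07) had them without a gained segment.

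**Figure D3:**
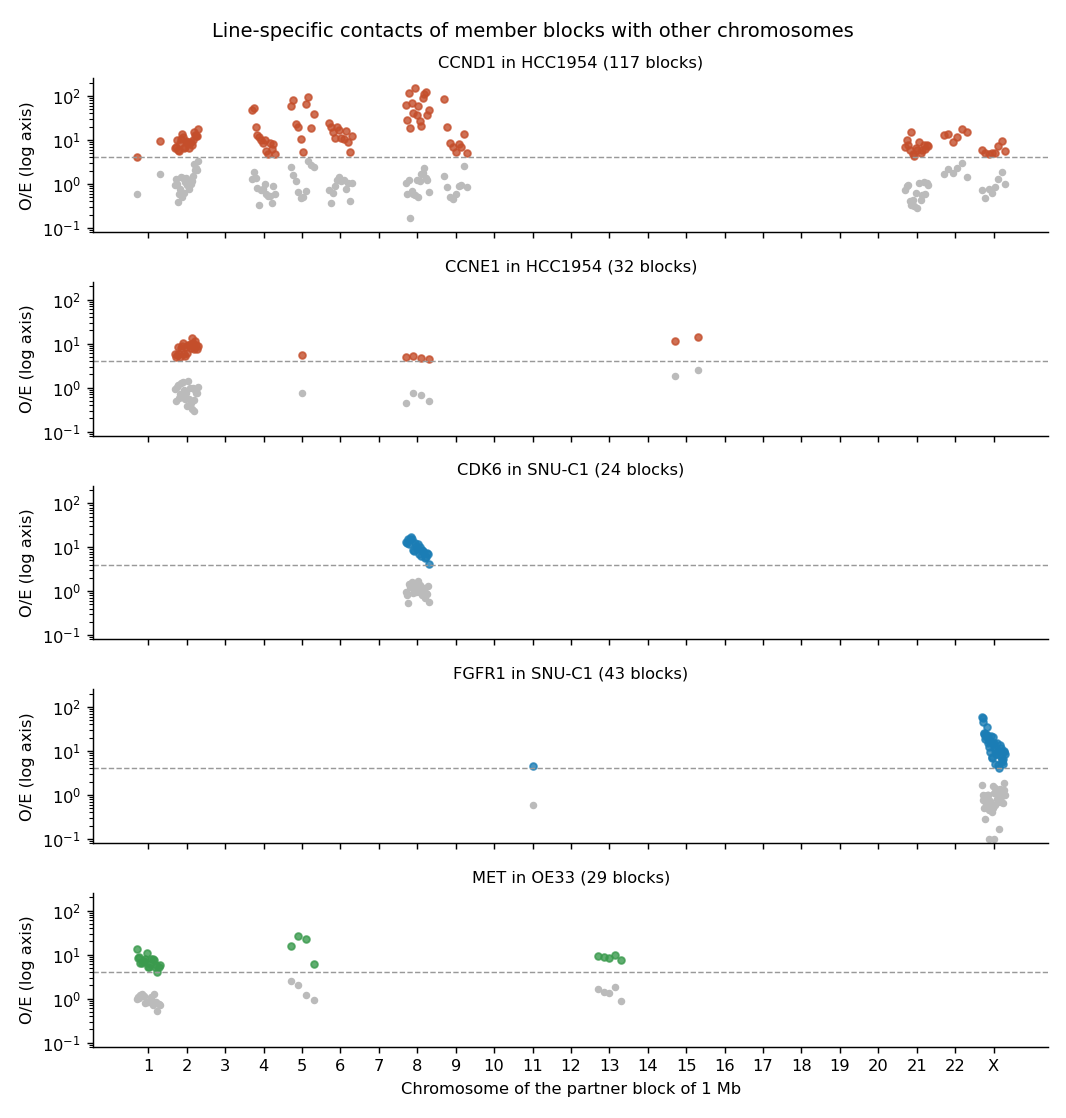
Line-specific contacts of 5 member blocks of 1 Mb with other chromosomes, as O/E on a log axis against the chromosome of the partner block. Coloured points are the line named in each panel, grey points the highest O/E of the other lines (values under 0.1 are drawn at 0.1), and the dashed line is 4; *CCND1* in HCC1954 meets 10 chromosomes while *FGFR1* in SNU-C1 meets chromosome X and 1 block of chromosome 11. The single block of *EGFR* is not drawn.

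On their own chromosomes the members had 131 line-specific pairs of 200-kb blocks at least 2 Mb apart among 218680 tested (0.0599%), below the 0.151% over the genome. HCC1954 had 87 (0.244% of pairs over the genome), SNU-C1 20 (0.205%), SW480 19 (0.0453%) and OE33 5 (0.109%). The count in SW480 was not stable, at 61 without replicate 1 and 57 without replicate 2 of that line. Of the 131, 71 rested on 10 read pairs or more. *CCND1* in HCC1954 accounted for 36 of 6599 (0.546%, against 0.244% over the genome in that line). In 31 of them the partner lay at 94 to 95 Mb, where the O/E reached 38.7 with 883 read pairs (826 to 943) and the other lines stayed at or under 0.824. The remaining 5 met 88.0 to 88.2 Mb at up to 18.0 with 440 read pairs (400 to 483).

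*CCNE1* in HCC1954 had 14 of 2506 (0.559%), with 41.8 to 42.6 Mb at up to 12.7 (147 read pairs) and with 54.0 to 54.4 Mb at up to 17.0 (127 read pairs). In SW480 it had 6, with 4.0 to 4.6 Mb at up to 5.37 (33 read pairs, 22.7 to 46.3). *EGFR* in OE33 met 10.4 Mb at an O/E of 9.92 with 28 read pairs (18.6 to 40.5). The 15 calls of *EGFR* in HCC1954 had fewer than 10 read pairs each, so their O/E is poorly known. *EGFR* in SW480 had 9 of 8490 (0.106%), of which 5 had 10 read pairs or more, led by 16.6 to 17 Mb at up to 5.36 (33 read pairs, 22.7 to 46.3). That count was unstable, at 30 without replicate 1, 33 without replicate 2, 3 with 1 added to each O/E, 1 against the expected value of its own chromosome and 0 in blocks of 400 kb. *FGFR1* in SNU-C1 had 4, all with at least 10 read pairs and at an O/E of up to 5.40 (14 read pairs, 7.65 to 23.5), and 0 with 1 added to each O/E or in blocks of 400 kb, but 21 at an O/E and fold of 3 and 210 without iterative correction. Its 10 calls in HCC1954 had fewer than 10 read pairs each. *CDK6* and *MET* had no more than 4 in any line, and the only one with 10 read pairs or more was *MET* in SW480 with 65.2 Mb (15 read pairs). Without either SW480 replicate *CDK6* had 5 to 8 in SW480 and *MET* 8 to 9, and *MET* had up to 5 in SNU-C1. At an O/E and fold of 3 *MET* had up to 21 and *CDK6* up to 12 in a line. Without iterative correction *MET* had 719 and *CDK6* 26 in OE33, where their windows have the highest coverage.

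Inside the windows none of 36648 tests of a bin pair in a line (3 by 3 bins, from 200 kb apart) was line-specific. Over the genome 0.00177% of such tests within 2 Mb were, so a count of 0 says nothing particular of the members. The highest ratio to the other lines, after 0.5 was added, lay between 1.07 and 1.74 in each member and line. It was reached by *EGFR* in HCC1954, between 54.40 and 55.84 Mb, with an O/E of 1.47 against 0.626 and 28 read pairs (18.6 to 40.5).

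Boundaries were placed at minima of the insulation score, the log2 of the mean contact frequency in a square of 1 Mb sliding along the diagonal over its mean for the chromosome. The 8 windows held 29 boundaries, of which 12 were found in all 4 lines. Positions of different lines were joined into 1 boundary where each lay within 80 kb of the next, so that the widest of the 12, at *MDM2*, ran from 68.60 to 68.72 Mb. Over the genome 40.6% of 3964 boundaries were found in all 4 lines, close to the share in the windows, and 87.7% of 2904 in both SW480 replicates. *MDM2* had 4 of the 12, *CDK6* and *MET* 2 each, and *EGFR*, *FGFR1*, *CCND1* and *CCNE1* 1 each. The score correlated between SW480 replicates at r = 0.99 or more over the bins of every window, and between lines at 0.35 to 0.99.

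*MDM2* started in a boundary bin in all 4 lines, at 69.20 Mb, with scores of -0.70 (SNU-C1), -0.67 (OE33), -0.53 (HCC1954) and -0.49 (SW480). A boundary within 1 bin in all 4 lines was found for 9.49% of 13165 usable start bins of genes, and *MDM2* was the only member with one. *CDK4* started in the boundary bin in SNU-C1 (-1.60), HCC1954 (-1.50) and OE33 (-1.78), at 58.12 Mb. In SW480 the start bin had a score of -1.50, as in HCC1954, but the boundary was placed 200 kb on, at 58.32 Mb, in both replicates too. The scores of *CDK4* were the lowest at the start of any member, and the promoters printed above belong to *CDK4* and *MDM2*.

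At *CCND1* the line with the gained segment stood apart. At the start bin HCC1954 scored -1.06, OE33 -0.35, SW480 -0.27 and SNU-C1 -0.08. HCC1954 was the lowest, and its mean difference from the other lines over the window was 0.78, beside 0.01 between the SW480 replicates. The mean O/E of bin pairs 200 kb to 1 Mb apart in this window was also lowest in HCC1954, at 0.564, beside 0.974 to 1.18 in the other lines. All 4 lines had a boundary at 68.80 to 68.84 Mb, next to the step in coverage, where HCC1954 reached -1.49 and the others lay between -0.41 and -0.17. A boundary at 69.52 Mb, the end of the segment, was found in HCC1954 alone, whereas 69.68 Mb was a boundary in the other 3 lines, though in replicate 1 and not replicate 2 of SW480. SW480 too had a boundary of its own in this window, at 70.04 Mb and in both replicates, where the other 3 lines had 70.24 Mb. Boundaries of HCC1954 alone made up 6.69% of those in the genome.

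*FGFR1* differed in the same line. The boundary at 38.60 to 38.64 Mb in SW480 (-1.03), SNU-C1 (-1.06) and OE33 (-1.18) was not called in HCC1954, where the score was -0.56. HCC1954 had a boundary of its own at 39.16 Mb (-1.07), the position of its step in coverage. Whether the steps account for these boundaries was not tested. At *MET*, 115.76 Mb and 116.80 to 116.84 Mb were boundaries in all 4 lines. OE33 reached -1.64 at the second, with the other lines between -0.60 and -0.36, and its mean difference from the others over the window was 0.65. The mean O/E of bin pairs 200 kb to 1 Mb apart in this window was also lowest in OE33, at 0.470, beside 0.858 to 0.988 in the other lines. HCC1954 had 2 further boundaries there, at 116.52 and 117.36 Mb, but they were weak. Their strengths were 0.274 and 0.176, over a minimum of 0.1, beside 0.409 to 1.83 at the boundaries of all 4 lines. At 116.52 Mb the score of HCC1954 (-0.35) was above those of SW480 (-0.38) and OE33 (-0.98) and below that of SNU-C1 (-0.12). At *CCNE1* HCC1954 had 30.20 Mb in place of the 30.08 Mb of the other 3 lines, and SW480 alone had 29.36 Mb, in both replicates. At *CDK6* SNU-C1 and OE33 had a boundary at 92.84 Mb where SW480 and HCC1954 had one at 92.68 to 92.72 Mb, and at *EGFR* OE33 had 55.68 Mb in place of the 55.32 to 55.36 Mb of the other lines. Boundaries of OE33 alone made up 6.56% over the genome.

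**Figure D4:**
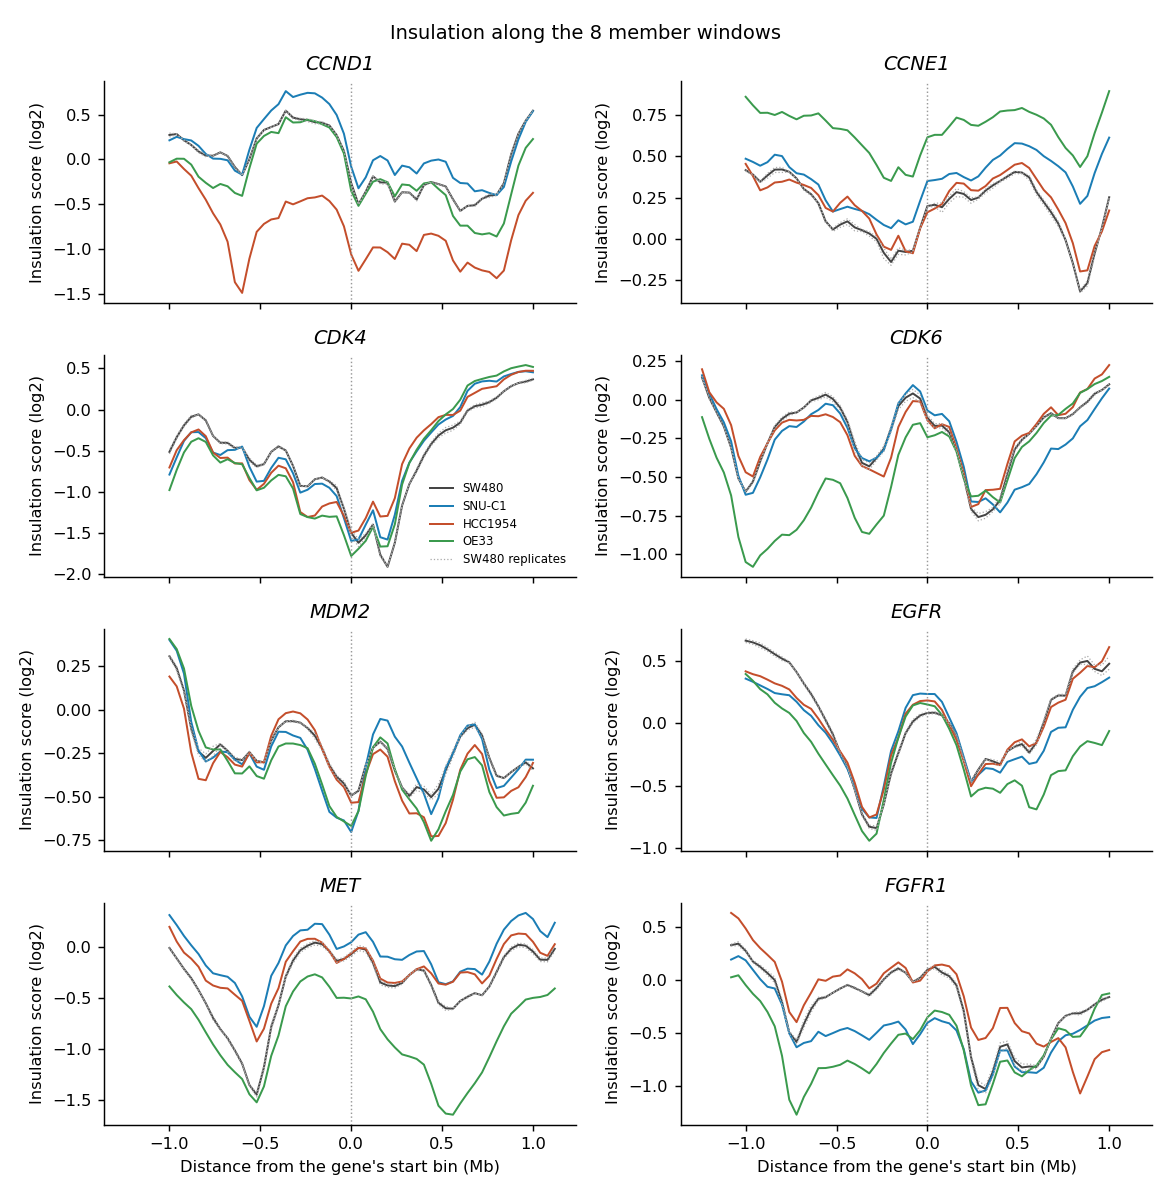
Insulation score (log2) against distance from the start bin of each of the 8 members in Mb. Solid lines are the 4 cell lines and dotted lines the SW480 replicates; HCC1954 lies below the other lines throughout the window of *CCND1*, and OE33 lies below them at *MET*, while the lines stay closer together at *CDK4* and *MDM2*.

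Contacts of the start bin with the rest of its window were read from single bins at least 120 kb away. *CCND1* had the strongest in each line, with 68.84 to 68.88 Mb, 560 to 600 kb before the gene. The O/E was 5.93 in SW480 (111 read pairs, and 5.33 and 6.47 in the replicates), 8.90 in SNU-C1 (100), 9.001 in OE33 (174) and 3.84 in HCC1954 (105). Counting intervals ran from 91.3 to 134 read pairs in SW480 and from 85.9 to 127 in HCC1954. A contact with an O/E of 4 or more within 1 Mb was present at 8.57% of start bins for HCC1954, 7.59% for SNU-C1, 7.08% for SW480 and 5.08% for OE33. The contact of *CCND1* passed this O/E in 3 lines and fell just short of it in HCC1954, the line with the gained segment, whose start the contact bin adjoins. Contacts 200 kb to 1 Mb apart were low over this whole window in HCC1954 (mean O/E 0.564, against 0.974 to 1.18 in the other lines). A low value there is therefore not particular to this bin pair.

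In each line these contacts lay mainly on 1 side of the gene. The mean O/E of the *CCND1* start bin with bins before it was 3.28 for SNU-C1, 2.93 for SW480, 2.90 for OE33 and 1.42 for HCC1954, against 0.498, 0.541, 0.616 and 0.344 with bins after it. *CDK6* had its strongest contact with 92.24 Mb, 200 kb away at the far end of its own body, with an O/E of 3.68 (SW480), 3.19 (SNU-C1), 2.81 (HCC1954) and 2.27 (OE33). SW480 was highest and OE33 lowest, on 752 and 396 read pairs. The mean O/E of bin pairs 200 kb to 1 Mb apart in the *CDK6* window was also highest in SW480 (1.07) and lowest in OE33 (0.647). HCC1954 (0.856) and SNU-C1 (0.765) lay between them. A high value in SW480 and a low one in OE33 are therefore not particular to this bin pair. The strongest contacts of the other 6 members lay between 1.52 and 3.41 in every line.

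**Figure D5:**
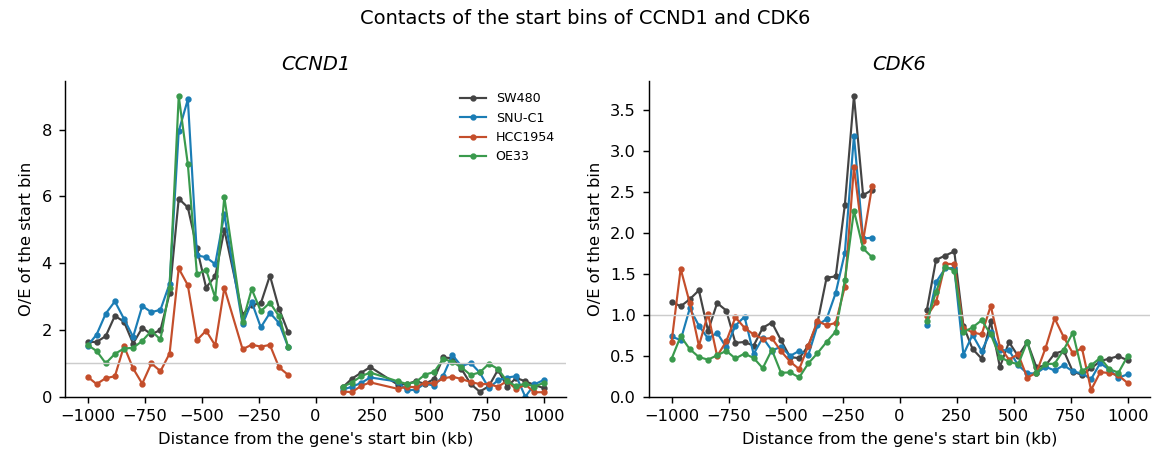
O/E of the start bin of *CCND1* and of *CDK6* with single bins of its window, against distance in kb, for the 4 lines; bins nearer than 120 kb are not shown and the grey line is 1. The contact of *CCND1* 560 to 600 kb before the gene reaches 9.001 in OE33 and 8.90 in SNU-C1, beside 3.84 in HCC1954.

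Compartments were taken from the first eigenvector of each arm in blocks of 200 kb, where A holds open and gene-rich chromatin and B the rest. In 27 of 32 combinations the block of the member lay in A, as did 77.3% of promoters over the genome. *CCND1*, *CDK4*, *CDK6*, *EGFR*, *MET* and *FGFR1* were in A in all 4 lines. *CCNE1* was in B in all 4, at -0.76 (HCC1954), -0.62 (OE33), -0.40 (SNU-C1) and -0.01 (SW480), and none of the 11 blocks of its window was in A in any line. The value in SW480 was close to 0. *MDM2* was in B in SW480 (-0.05, and -0.21 and -0.04 in the replicates) and in A in SNU-C1 (1.01), HCC1954 (0.94) and OE33 (1.18).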

How the data were processed

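In situ Hi-C with MboI was carried out on SW480, SNU-C1, HCC1954 and OE33. The authors used BWA-MEM for alignment (hg19) and Picard against PCR duplicates (versions not given in the sources used here), built matrices with pipelines of their own and applied iterative correction. Each deposited value is a signal, the corrected contact frequency of a pair of 40-kb bins, that is, a number of read pairs over a factor for each bin. The authors also deposited the numbered bin list (another column with no measurement), whose chromosome lengths equal GRCh37 for 23 of 23 chromosomes. All deposited columns of values were used. For SW480, the 2 replicate maps added up to the unnumbered map at 99.9% of 29392095 bin pairs, so that map served as their pool.

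Factors came from 45 rounds of fitting to pairs separated by 5 Mb or more (plus pairs between chromosomes outside SW480), and products within 0.02 of a whole number, up to 20 read pairs, were taken as whole. Fewer read pairs at long distance widen the intervals there. A bin was kept where every line had 0.25 or more of its median coverage. O/E used the mean at the same distance over all chromosomes, except between chromosomes. Boundaries were called on these 40-kb maps with parameters from the methods (square of 1 Mb, delta over 200 kb, strength of at least 0.1). An arm gave a compartment only where eigenvector and gene density correlated at 0.3 or more. Gene positions were those of GENCODE on GRCh37. The main calculations were tested on simulated data.

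The comparisons are between single maps, so no test was made, and replicates were compared in SW480 only. The text names all members, list genes gained or lost in any line, the nearest gene in coverage and the highest gene of each segment. Members, lists and thresholds were chosen with earlier results of these data known. The GC adjustment, bridged segments and the *ERBB2* bins were added after seeing values. Alternatives changed bins, folds, reference lines, pair distances, correction and SW480 replicates. Scripts ran in Python 3.11.15 (pandas 2.3.3, PyArrow 21.0.0, NumPy 2.4.6, Matplotlib 3.10.9, SciPy 1.17.1).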

Additional observations from a re-analysis of the deposited data

How the results depend on the processing

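Of 67 alternatives over the 8 summary counts, 50 stayed within 1.5 times the value reported. Gains numbered 3, and 5 with read pairs at least 5 Mb apart, 6 at a lower fold and 9 against the autosomal median of the same line alone. Losses numbered 4, and 1 at a fold of 2, 7 against the mean of the other lines and 2 after adjustment for GC content over the bins of the gene. Gained segments numbered 4, and 7 at the lower fold and 2 at a fold of 2. Without iterative correction 227 contacts within windows were line-specific in place of 0, all of *MET* in OE33, 1073 on the same chromosome in place of 131 (719 of *MET* in OE33), and 1126 with other chromosomes in place of 246 (598 of *MET* in OE33). The count on the same chromosome was 65 with 1 added to each O/E, 71 with at least 10 read pairs, 457 at an O/E and fold of 3, and 12 in blocks of 400 kb. That with other chromosomes was 125 in blocks of 2 Mb and 380 at an O/E and fold of 3. Boundaries in all 4 lines numbered 10 to 14. The one direction that turned was *CDK6* in HCC1954, lost against the other lines and at 1.40 against its own autosomal median alone. The cause of these shifts was not tested, beyond what each setting changes by construction. Leaving out either SW480 replicate gave 169 to 177 contacts on the same chromosome and kept the counts of gains (3), losses (4), segments (4), window contacts (0), boundaries (12) and blocks in compartment A (27). No paired analysis was possible because only SW480 has numbered replicates and no test was made.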
